A study of Mus musculus with 2 samples.

Results

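The 6 genes described here make and handle the active forms of vitamins B2 and B6. Slc52a3 and Slc52a2 encode riboflavin transporters, Rfk encodes riboflavin kinase, Flad1 encodes FAD synthase, Pdxk encodes pyridoxal kinase and Pdxp encodes pyridoxal phosphatase. The set was selected on the ratio of LMO2 siRNA to control siRNA signal in these arrays, where Slc52a3 was strongly lower and Pdxk strongly higher, so its ratios are given as descriptions with no test. All 6 were measured, among 14277 genes, by 11 of the 41174 distinct probes of the array. These were 2 probes for Slc52a3, 3 for Rfk, 3 for Pdxk and 1 for each other gene.

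Riboflavin enters cells through the SLC52 carriers, is phosphorylated to FMN by riboflavin kinase and is joined to AMP by FAD synthase. FMN and FAD serve dehydrogenases, reductases and oxidases, among them protoporphyrinogen oxidase of heme synthesis. Vitamin B6 is phosphorylated by pyridoxal kinase and trapped in the cell. Its active form, pyridoxal phosphate (PLP), is the cofactor of 5-aminolevulinate synthase, the first enzyme of heme synthesis, and of many enzymes of amino acids and amines. Pyridoxal phosphatase removes the phosphate again.

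The cells were G1E-ER-GATA-1, a mouse erythroid line that is null for GATA-1 and carries a GATA-1 protein fused to an estrogen receptor domain. Both arms received siRNA, one against Lmo2 and the other a control siRNA, and both were then kept in beta-estradiol for 24 h to switch GATA-1 on. Lmo2 encodes a bridging protein that links GATA-1 to other DNA-binding proteins. Each of 2 Agilent arrays held RNA of both arms, with LMO2 siRNA RNA in Cy3 and control RNA in Cy5 each time, so dye and siRNA effects cannot be told apart. The arrays carry replicate numbers and no word on separate cultures, so the spread between them may be technical. In bulk RNA, fewer cells of a type and less RNA per cell cannot be told apart.

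The knockdown ran as labelled, since Lmo2 read 3089 and 2945 processed intensity units with LMO2 siRNA against 11129 and 12460 with control siRNA on replicates 1 and 2. Per channel, 55.8% to 68.2% of spots passed the scanner's test for signal well above background. All 9 erythroid markers on the array were well above background in both channels on both arrays, while the labels also call these cells ES cells. Of 5 pluripotency markers on the array, Dppa5a and Tdgf1 were well above background in all 4 channels, Pou5f1 in 3, Zfp42 in 2 and Nanog in 0. Log2 ratios drifted with a spot's row. The median of spots in bands of 20 rows ran from -0.24 to 0.15 with loess normalization alone, from -0.06 to 0.15 once the scanner's factor for position was divided out, and from -0.09 to 0.06 in the scanner's processed signals. Ratios set LMO2 siRNA over control siRNA and are given on the log2 scale as mean ± SD of the arrays (n = 2), with loess alone unless stated. The words rose and fell are kept for unsaturated genes that limma called in 1 direction with all 3 sets of values.

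The probes of Slc52a3, Pdxk and Rfk are shown because these genes were read by more than 1 probe and their probes did not give the same ratio. Probes are numbered from the brightest. Each is a 60-base oligo, of which the first 30 bases are printed 5′ to 3′ in lower case. Probes of 1 gene shared no run longer than 8 bases, so they are separate target sites.
Slc52a3 probe 1: acagtgcggacctcaaaaggggtagctcag
Slc52a3 probe 2: cagactttgttctctgtcttcggagagatc
Rfk probe 1: tctatggctgagcaacatccctagccttca
Rfk probe 2: aaagtccatggaaacacacatcatccatac
Rfk probe 3: agaaaggtaatttaacaacacacagacacc
Pdxk probe 1: acctgtcagcactgtgtagctgtgtctgtt
Pdxk probe 2: gccatgaagcctgacatgtgtccaaacctg
Pdxk probe 3: aagtcccaggaacttcatgagctgtacgag

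The transporter gene Slc52a3 was lower with LMO2 siRNA at both of its target sites. Probe 1 read 6895 and 6893 processed intensity units with LMO2 siRNA on replicates 1 and 2, against 15559 and 14615 with control siRNA. Probe 2 read 648 and 642 units against 1345 and 1320. Both control values lay above both LMO2 siRNA values for each probe. This is a description only, since the gene was picked on its ratio in these arrays. The log2 ratio of probe 1 was -1.53 ± 0.03, a 2.88-fold lower signal, and only Lmo2 had a lower ratio among all genes tested. Probe 2 gave -0.97 ± 0.002, or 1.96-fold lower.

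The ratio of Slc52a3 probe 1, which sits in row 5 at the edge of the array, was closer to 0 with position correction. Spots within 10 rows of it had a median log2 ratio of -0.22 on each array, while spots around probe 2, in row 247, had medians of -0.03 and -0.02. With position correction the probes read -1.10 ± 0.07 and -0.89 ± 0.0025, and in processed signals -1.13 ± 0.06 and -1.05 ± 0.01. The distance between the probes was 0.55 with loess alone and 0.20 with position correction, where the median over 3458 genes with 2 unsaturated probes was 0.19 and 0.13. By the corrected values Slc52a3 was 2.14-fold lower at probe 1, and by processed signals 2.19-fold lower. In the band of first rows, where probe 1 lies, spots had a median log2 ratio of 0.15 with position correction. That was the highest of any band with this correction. The same band had -0.24 with loess alone and -0.09 in processed signals. The ratio of probe 1 was therefore not free of row drift in any set of values.

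Slc52a2, the other riboflavin transporter gene of the set, stayed near its control level. It read 943 and 819 processed units with LMO2 siRNA against 1003 and 888 with control siRNA. On each array the LMO2 siRNA value was the lower, but the LMO2 siRNA value of replicate 1 exceeded the control value of replicate 2. Its log2 ratio was -0.14 ± 0.04, with -0.09 after position correction and -0.10 in processed signals.

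**Figure D1:**
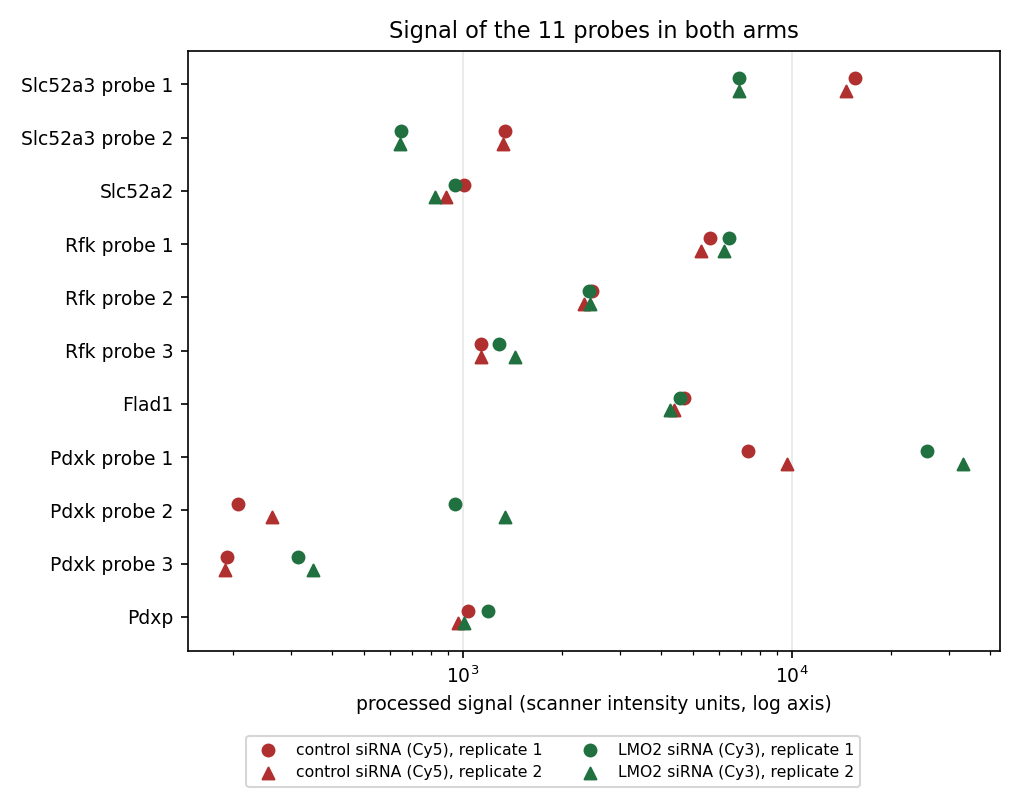
Processed signal (scanner intensity units, log axis) of each probe in both arms, with circles for replicate 1 and triangles for replicate 2. Control siRNA lies to the right of LMO2 siRNA for both Slc52a3 probes and to the left for all 3 Pdxk probes, and the arms lie close together for the other 4 genes. Positions along the axis compare arms within a probe, not probes with each other.

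The kinase and synthase that turn riboflavin into FMN and FAD showed no difference that held across the sets of values. Rfk probe 1 read 6439 and 6211 units with LMO2 siRNA against 5634 and 5277 with control siRNA. Rfk probe 2 read 2407 and 2425 against 2469 and 2334, where the arms overlapped. Rfk probe 3 read 1283 and 1437 against 1135 and 1137. The corresponding log2 ratios were 0.04 ± 0.03, -0.11 ± 0.05 and 0.44 ± 0.10, so with loess alone the probes of Rfk differed in sign.

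With position correction the Rfk probes moved together, to 0.22, 0.02 and 0.22, and in processed signals they read 0.21, 0.01 and 0.26. Probe 3 lies in row 499, where the surrounding spots had medians of 0.17 and 0.14 on replicates 1 and 2, and probe 1 in row 92, where they had -0.13 and -0.14. The distance between the highest and lowest Rfk probe fell from 0.54 to 0.20 with the correction. Flad1 read 4556 and 4268 units with LMO2 siRNA against 4712 and 4373 with control siRNA. Its log2 ratio was -0.19 ± 0.0038 with loess alone, but -0.02 with position correction and -0.04 in processed signals.

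**Figure D2:**
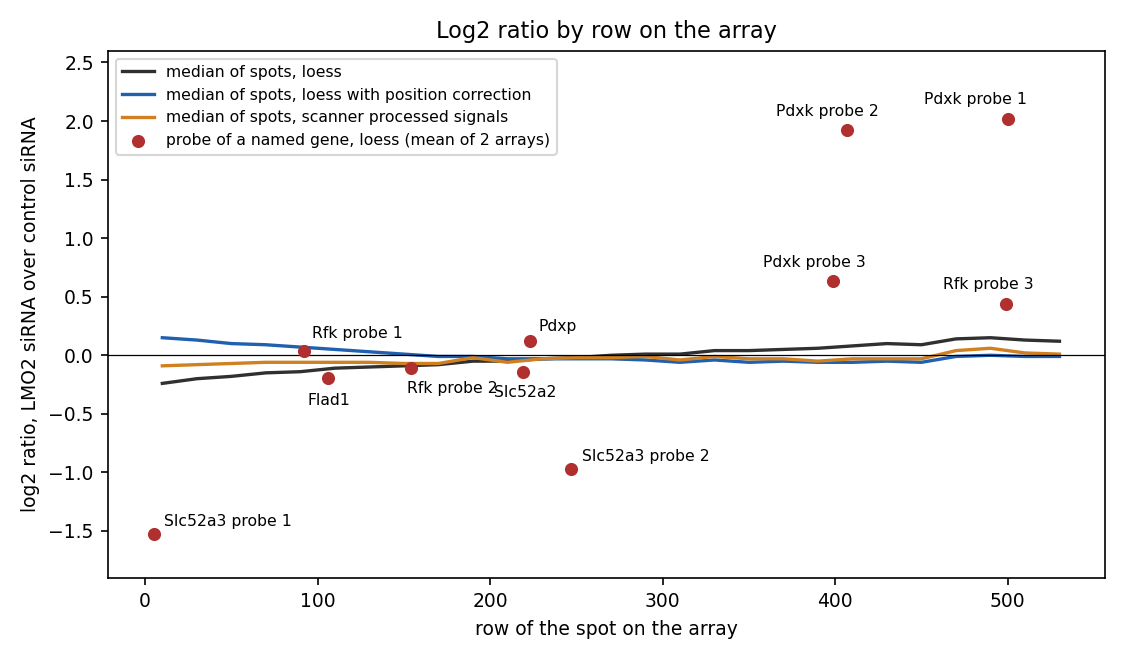
Log2 ratio (LMO2 siRNA over control siRNA) against the row of the spot on the array. Lines are medians over bands of 20 rows for the 3 sets of values, and points are the 11 probes with loess alone, as the mean of 2 arrays. The loess line climbs from -0.24 at the first rows, where Slc52a3 probe 1 lies, to 0.15 near row 490, where Pdxk probe 1 and Rfk probe 3 lie.

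Pdxk was higher with LMO2 siRNA at all 3 of its target sites, but by unequal amounts. Probe 1 read 25750 and 33079 processed units with LMO2 siRNA on replicates 1 and 2 against 7352 and 9663 with control siRNA. Probe 2 read 943 and 1340 against 207 and 263, and probe 3 read 315 and 350 against 192 and 189. No control value reached the LMO2 siRNA values of the same probe, which is again a description of a gene picked on its ratio.

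The log2 ratio of Pdxk was 2.02 ± 0.04 at probe 1, a 4.06-fold higher signal and the third-highest ratio among all genes tested. Probe 2 gave 1.92 ± 0.12 and probe 3 gave 0.63 ± 0.07, or 1.55-fold higher. The distance of 1.39 between the highest and the lowest probe was larger than in 99.8% of the 1217 genes with 3 unsaturated probes, whose median was 0.34. Position correction left it at 1.31, with 1.77, 1.73 and 0.46 for probes 1 to 3, and in processed signals the probes read 1.79, 2.27 and 0.80. The gap at probe 3 thus remained in all 3 sets of values. Probe 3 was the dimmest of the 11 probes, with mean signals of 162 and 160 units over local backgrounds of 37.0 and 38.5 in the LMO2 siRNA channel, and of 171 and 152 over 46.0 and 49.0 in the control channel. It was well above background in each channel. The part of its low signal in its low ratio was not tested.

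Pdxp, whose product opposes Pdxk, read 1189 and 1007 units with LMO2 siRNA against 1037 and 962 with control siRNA. The LMO2 siRNA value was the higher on each array, but the arms overlapped between arrays. Its log2 ratio was 0.12 ± 0.08, with 0.12 after position correction and 0.13 by processed signals.

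**Figure D3:**
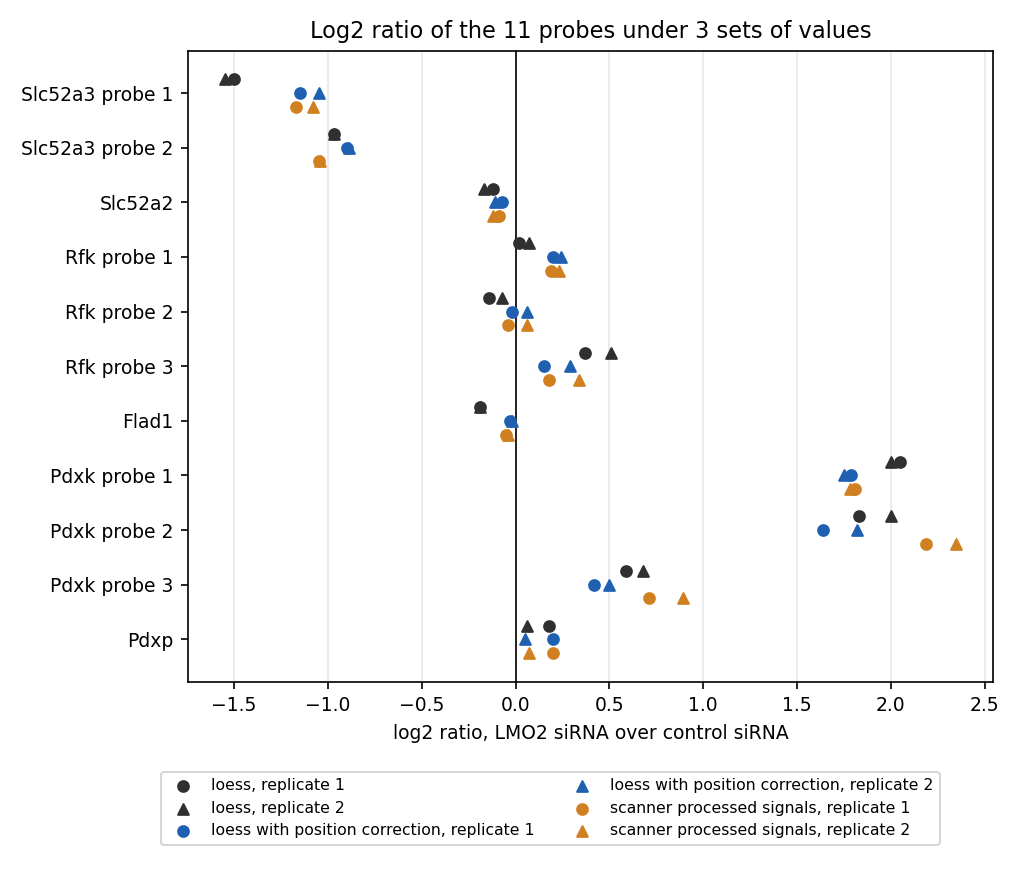
Log2 ratio of each probe on each array under 3 sets of values, with circles for replicate 1 and triangles for replicate 2. Slc52a3 lies below -0.8 and Pdxk probes 1 and 2 lie above 1.6 in every set, while Pdxk probe 3 lies between 0.42 and 0.89.

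In order of log2 ratio with loess alone the genes ran Slc52a3, Flad1, Slc52a2, Rfk, Pdxp and Pdxk. The 4 genes in the middle lay between -0.19 and 0.12, and their order changed with the values used, since Flad1 lay above Slc52a2, and Rfk above Pdxp, after position correction. With loess alone limma called 3 of the 6 genes lower and 1 higher, where it called 27.4% of all genes lower and 24.6% higher. The background was 20.5% lower and 24.2% higher with position correction, and 3.54% and 6.99% in processed signals. By all 3 sets of values 1 of the 6 fell and 1 rose, where 2.54% of all genes fell and 5.47% rose, or 8.01% in either direction. The choice of members used this contrast, so nothing is read from these counts. The genes nearest to Pdxk in log2 ratio on the 2 arrays were Pirb (2.04 and 1.92), Myo1g (1.93 and 2.00) and Ahnak (1.93 and 2.05), at distances of 0.07 to 0.13. Those nearest to Slc52a3 were Pfkfb4 (-1.21 and -1.31), Lmo2 itself (-1.82 and -2.02) and Erfe (-1.14 and -1.10), at distances of 0.38 to 0.57.

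Of the 6 genes, 4 had a promoter sequence in the RefSeq table of GRCm38.p6, Pdxk among them. Its 250 bases before the start, at chr10:78464949-78465198 on the minus strand, are shown because complexes of LMO2 and GATA-1 are known to bind GATA motifs and E-boxes. Capitals mark GATA, searched on both strands, and the E-box letters CANNTG, which read the same on both strands. The window held 1 GATA match and 2 CANNTG matches, none overlapping. Windows of members with small ratios held them too, with 1 GATA match for Rfk and 2 CANNTG matches for Pdxp, while Flad1 had 0 of either. Among 32851 promoter windows of the same length, 53.6% held a GATA match and 66.2% a CANNTG match, so these letters are common in such windows, and a match is not a binding site.
Pdxk: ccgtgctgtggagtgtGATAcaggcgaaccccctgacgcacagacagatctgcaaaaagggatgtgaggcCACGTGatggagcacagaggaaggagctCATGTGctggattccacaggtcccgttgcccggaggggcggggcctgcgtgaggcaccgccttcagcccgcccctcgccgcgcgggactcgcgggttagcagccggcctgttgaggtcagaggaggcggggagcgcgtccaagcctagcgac

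Other genes of flavin handling gave small ratios. Of 7 listed genes 5 were measured, and with loess alone limma called 1 higher and 1 lower. That was 40.0% of them, where it called 52.0% of all genes. The median log2 ratio was -0.05 against -0.02 for all genes. None rose or fell by all 3 sets of values, and 2 had an unadjusted p under 0.05. Acp5, an acid phosphatase, read -0.39 ± 0.15 (adjusted p = 1.2e-06, limma), and -0.24 in processed signals (adjusted p = 0.13). Slc25a32, a mitochondrial carrier linked to FAD, read -0.08 ± 0.06, and the acid phosphatase genes Acp2 and Acp1 read -0.05 ± 0.02 and 0.04 ± 0.02. Another Acp1 probe read -0.39, and another Acp2 probe -0.30, with an Acp2 mean over probes of -0.16 (adjusted p = 0.018, limma). Blvrb, which encodes flavin reductase, was the gene called higher, but it had saturated control spots on each array and is therefore given no fold. Enpp1 and Enpp3 did not pass the filter on dim probes.

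Of 5 other genes of vitamin B6 handling 3 were measured, and with loess alone 1 was called higher and 1 lower. That was 66.7% of them against 52.0% of all genes, with a median of -0.11. None rose or fell by all 3 sets of values, and 2 had an unadjusted p under 0.05. Plpbp, a PLP-binding protein gene, read -0.11 ± 0.01 (adjusted p = 0.1, limma) and was called lower with position correction (-0.15, adjusted p = 0.036) and as the mean over its probes (-0.28, adjusted p = 0.00031), 1 of which read -0.42. Phospho2, a phosphatase gene, read 0.16 ± 0.01, and 0.02 with position correction. Alpl and Aox1 did not pass the filter.

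Enzymes that use FMN or FAD were called in both directions, as were all genes. Of 82 listed flavoenzyme genes 68 were measured, and limma called 25 higher and 19 lower, 64.7% of them where it called 52.0% of all genes. The median was 0.04 against -0.02 for all genes. Of all genes, 24.6% were called higher and 27.4% lower. By all 3 sets of values 8 rose and 1 fell, 11.8% and 1.47% of those measured. Among all genes 5.47% rose and 2.54% fell. Mical1, an actin-oxidising monooxygenase, rose by 1.48 ± 0.01 (adjusted p = 3.1e-20, limma), from 4065 and 4970 processed units in control siRNA to 10961 and 13284 in LMO2 siRNA cells. Maoa, which encodes the mitochondrial monoamine oxidase A, rose by 1.11 ± 0.03, from 811 and 840 units to 1919 and 2064. In each of these the arms did not overlap, but both genes were named for their large ratios, so the separation is a description only.

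The quinone reductase gene Nqo1 rose by 0.94 ± 0.06, the disulfide oxidase gene Ero1a by 0.71 ± 0.06 and Gpd2, the mitochondrial glycerol phosphate dehydrogenase gene, by 0.62 ± 0.05. A dimmer Ero1a probe read 0.23. With median centring in place of loess, Ero1a (0.07, adjusted p = 0.57, limma) and Gpd2 (0.05, adjusted p = 0.67) were no longer called. Gcdh, which encodes glutaryl-CoA dehydrogenase, fell by 0.68 ± 0.02, from 27078 and 26056 units to 18932 and 17517. The other 3 that rose, named after their values were seen, were Acadm (0.62 ± 0.02) and Acad10 (0.21 ± 0.01), of the acyl-CoA dehydrogenase family, and the glutathione reductase gene Gsr (0.29 ± 0.0039). With median centring only 3 flavoenzymes were called higher, Mical1, Maoa and Nqo1, so Acadm, Acad10 and Gsr were not. Ppox, the flavoenzyme of heme synthesis, was called lower at -0.23 ± 0.08 with loess alone but not in the other sets (-0.11 and -0.12), and was also named after its value was seen.

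PLP enzymes were likewise called in both directions. Of 50 listed genes 34 were measured, and limma called 12 higher and 10 lower, with a median of 0.02. That was again 64.7% of them, where 52.0% of all genes were called, 24.6% higher and 27.4% lower. By all 3 sets of values 3 rose, 8.82% of those measured against 5.47% of all genes. Another gene met the rule for a fall only through its control channel. Hdc, which makes histamine, rose by 1.22 ± 0.08 (adjusted p = 8.1e-18, limma), from 597 and 710 units to 1630 and 1772. Ddc, the aromatic amino acid decarboxylase gene, rose by 1.12 ± 0.06, from 139 and 221 units to 477 and 653, although a dimmer probe read 0.37. Sdsl, a serine dehydratase-like gene, rose by 0.62 ± 0.10. The size of both ratios depended on the values used. Ddc and Sdsl read 1.67 and 1.19 in processed signals, and 1.37 and 0.84 with a normexp offset of 10.

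Kyat1 (-0.51 ± 0.02) and Phykpl (-0.47 ± 0.11) were called lower and Got2 (0.47 ± 0.04) higher with loess alone. All of them missed the threshold in processed signals. With position correction Kyat1 was not called either (-0.15, adjusted p = 0.053, limma), while Phykpl (-0.20) and Got2 (0.29) were. These genes encode, in that order, a kynurenine aminotransferase, a phospholyase and the mitochondrial aspartate aminotransferase. The gene that met the rule only through its control channel was Gpt2, an alanine aminotransferase gene named after its values were seen. It was not well above background in the LMO2 siRNA channel on either array and passed the filter only because of its control signal, so its call is no support for a fall. Its control signal was 1.35-fold above the higher of the probe's own LMO2 siRNA signal and the lowest LMO2 siRNA signal well above background. That value is a description and no minimum for a fall. Alas2, the erythroid 5-aminolevulinate synthase gene, also picked after its value was seen, read 55371 and 49348 units with LMO2 siRNA against 59381 and 56799 with control siRNA. Its log2 ratio of -0.04 ± 0.08 was not called, nor was -0.15 in processed signals, while -0.18 with position correction was called lower (adjusted p = 0.022, limma).

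**Figure D4:**
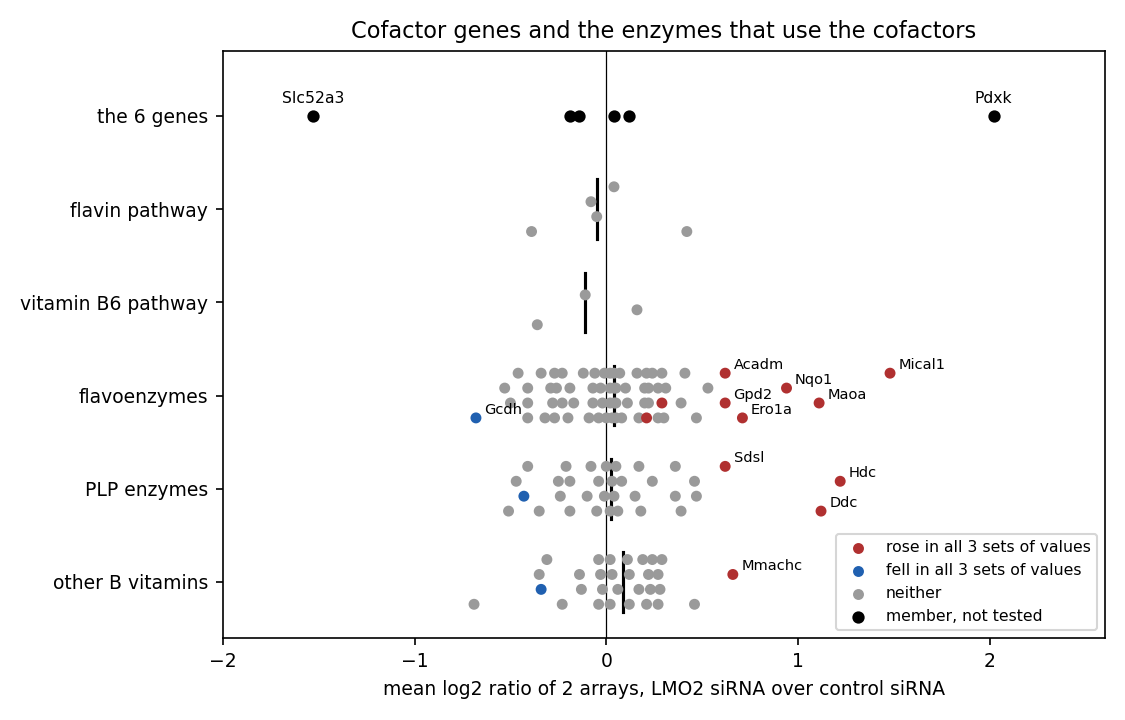
Mean log2 ratio of 2 arrays for the 6 genes and for the measured genes of 5 lists, with 1 point a gene and a black bar at the median of each list. Red and blue points rose or fell by all 3 sets of values, and the spread across each line has no meaning. Slc52a3 at -1.53 and Pdxk at 2.02 lie beyond every gene of the lists, which run from -0.69 to 1.48.

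Some cell type markers also differed between the arms. The summed processed signal of 11 myeloid and mast cell markers was 2397 to 2680 with LMO2 siRNA and 1306 to 1505 with control siRNA, and most of the gap was Hdc itself (1630 and 1772 against 597 and 710). With Hdc, Cd68 and Cpa3 rose and the other 6 of 9 measured were not called, with a list median of -0.03. Elane and Mcpt8 of that list were at background in every channel. The sum of 6 progenitor markers was 9711 to 10957 against 5987 to 6620, and 4 of the 5 measured rose, while Cd34 was at background. Flt3, the remaining progenitor marker, was called lower with loess alone (-0.15 ± 0.03). The sum of the 9 erythroid markers was 171974 to 183875 against 191788 to 197659. With loess alone limma called 2 of them higher and 4 lower, 66.7% against 52.0% of all genes. Their median log2 ratio was -0.08. Hbb-bh1 rose by 0.88 ± 0.04, and no erythroid marker fell by all 3 sets of values. For megakaryocyte markers the sums were 4971 to 5826 against 3653 to 3992. There Gp1ba rose (3140 and 3485 against 1441 and 1498), Gp9 fell by 0.31 ± 0.05 and the other 4 of 6 measured were not called. The sums were for lymphocyte markers 526 to 654 against 651 to 865, and for pluripotency markers 368 to 392 against 281 to 335. In the pluripotency sum Dppa5a read 242 and 283 units against 189 and 209. It was called higher (0.38 ± 0.06) but missed the threshold in processed signals, and another probe read -0.01. The median log2 ratio of the pluripotency markers measured was 0.01. Of the lymphocyte markers, Cd3e fell by 0.34 ± 0.14 and Dntt was called lower with loess alone (-0.23 ± 0.07). Their part in the ratios of Slc52a3, Pdxk and the enzymes above was not tested.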

How the data were processed

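RNA of both arms was measured on 2 Agilent mouse arrays read in 2 colours. Agilent Feature Extraction 9.1.3.1 made the spot values, per the file headers. The deposited files hold linear intensity values, of which mean signal, background median and processed signal were used. Processed signals were background-subtracted, position-corrected and dye-normalized, per the file headers, and the deposited position factor is a ratio. The authors' series table holds log10 values of red over green that match the deposited log10 ratios within 0.005 units. No genome build for the probes is named.

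Background was corrected with normexp (offset 50) and each array was loess-normalized (control spots: weight 0) in limma 3.58.1 (R 4.3.3). Spots of a probe were averaged. Of 41174 probes, 24844 took their name from a GRCm38.p6 RefSeq table matched on accession, 9518 kept the file's name and 6812 had none. The 24739 probes with 1 channel well above background on both arrays were used, and the brightest of them stands for its gene. Mean log2 ratios were tested against 0 with lmFit and eBayes, Benjamini-Hochberg adjusted over 14277 genes at 0.05. With 30 prior and 1 residual degrees of freedom, p-values depend mainly on a variance shared across genes. The code was tested on simulated data. The comparison of the Gpt2 channels used channel values after loess and Aquantile.

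Named genes are the 6 genes with all probes, Lmo2, every measured gene of the flavin and vitamin B6 lists (1 of them is not reported here), up to 6 genes with the largest absolute ratio from each longer list, and the 3 unsaturated named genes nearest to Slc52a3 and to Pdxk. The members, lists, tests and alternatives were chosen with earlier results of these data known.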

Additional observations from a re-analysis of the deposited data

How the results depend on the processing

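The number of arrays and the dim signal of Pdxk probe 3 limit these values. The test was paired by array, since each array sets both arms against each other and limma tested the ratio within arrays. Each array alone allows no test. Replicates 1 and 2, in that order, gave ratios of -1.50 and -1.55 for Slc52a3, and -0.12 and -0.17 for Slc52a2. They gave 0.02 and 0.07 for Rfk, -0.19 on each for Flad1, 2.05 and 2.00 for Pdxk, and 0.18 and 0.06 for Pdxp. Slc52a3 stayed lower and Pdxk higher under every alternative run, and the causes of the shifts below were not tested.

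In the order Slc52a3, Slc52a2, Rfk, Flad1 and Pdxk, position correction gave -1.10, -0.09, 0.22, -0.02 and 1.77. Processed signals gave -1.13, -0.10, 0.21, -0.04 and 1.79, as did the series table. Median centring in place of loess shifted the all-gene median to -0.41 and gave -2.21, -0.66, -0.60, -0.82 and 1.33, with -0.40 for Pdxp, so Rfk and Pdxp changed sign. The mean of probes gave -1.25 for Slc52a3, 0.13 for Rfk and 1.52 for Pdxk. A normexp offset of 10 gave -0.17 for Flad1 and 2.06 for Pdxk.

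Over all genes, limma called 3515 higher and 3916 lower, and 998 and 505 in processed signals, 912 and 433 in the series table, 424 and 9217 with median centring, and 441 and 169 when 1.5-fold was also asked on both arrays. Flavoenzymes called higher and lower, 25 and 19 with loess alone, were 8 and 1 in processed signals, 7 and 1 in the series table, 3 and 50 with median centring and 6 and 1 at 1.5-fold, with 11 lower after position correction. PLP enzymes, 12 and 10, were 3 and 1 in processed signals and in the series table, 3 and 23 with median centring and 2 and 0 at 1.5-fold, with 6 lower after position correction. Other B vitamin genes, 12 and 6, were 1 and 1 in processed signals, in the series table and at 1.5-fold, and 0 and 18 with median centring. For the flavin pathway, 1 and 1, median centring gave 0 and 5 and 1.5-fold gave 0 and 0. There the lower calls were 2 after position correction, 0 in processed signals and in the series table and 3 with the mean of probes, and 0 were higher without saturated probes. For the vitamin B6 pathway, 1 and 1, position correction gave 0 and 2, processed signals, the series table and 1.5-fold gave 0 and 0, and median centring gave 0 and 3, with 2 lower without a filter and with the mean of probes.

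Among the named genes that are no members, sign changes came with median centring for Blvrb (-0.39, from saturated control spots, so no measure of its direction), Acp1 (-0.57), Phospho2 (-0.34), Got2 (-0.20) and Ppcs (-0.14), and for Acp1 also with position correction (-0.20) and the mean of probes (-0.17).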

Other observations

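Genes that take up or activate other B vitamins were described beside the riboflavin and vitamin B6 genes. Of 31 listed genes 30 were measured, and limma called 12 higher and 6 lower, 60.0% of them against 52.0% of all genes, with a median log2 ratio of 0.09 against -0.02. By all 3 sets of values 1 rose and 1 fell, each 3.33% of those measured, where 5.47% of all genes rose and 2.54% fell. Mmachc, which encodes a vitamin B12 processing enzyme, rose by 0.66 ± 0.0012 (adjusted p = 1.2e-11, limma), from 837 and 784 processed units with control siRNA to 1444 and 1351 with LMO2 siRNA. With median centring in place of loess it read 0.15 and was no longer called (adjusted p = 0.2). Pank4, of the pantothenate kinase family, fell by 0.34 ± 0.0046, from 12705 and 12877 units to 9282 and 9471. The arms did not overlap for either gene, but both were named for their large ratios, so this too is only a description.

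Pank2 had the largest ratio of this list with loess alone, at -0.69 ± 0.07. Position correction gave -0.34 and processed signals gave -0.36 (adjusted p = 0.055), and another probe read 0.01. Ppcs, of coenzyme A synthesis, was called higher at 0.46 ± 0.05. The vitamin B12 genes Mmab (-0.35 ± 0.03) and Lmbrd1 (-0.31 ± 0.0028) were called lower. None of these 3 met the rule for all 3 sets of values.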
